A study of Mus musculus with 2 samples.

Results

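Single-nucleus RNA sequencing (10x Genomics) was used to read transcripts of hindbrain neurons that descend to the spinal cord. Every neuron that releases glutamate, GABA or glycine needs a small set of transcripts for it, and the neurons described here could not be assigned by those transcripts. They were nuclei from the hindbrains of TRAP2 mice aged 8 to 12 weeks, sorted after a retrograde virus (AAV-retro-H2B-GFP) had been placed in the lumbar spinal cord. For each nucleus a glutamate sum (UMIs of Slc17a6, Slc17a7 and Slc17a8) and an inhibitory sum (UMIs of Gad1, Gad2, Slc32a1 and Slc6a5) were formed. The nuclei were chosen by these 2 sums. A UMI, or unique molecular identifier, marks 1 counted transcript. Nuclei whose 2 sums totalled under 3 UMIs are called few-UMI. Nuclei with a total of at least 3 in which neither sum reached 75% are called mixed. Nuclei with 5 or more Tph2 UMIs (serotonergic) or 20 or more UMIs of the liver genes Alb, Cps1 and Apob together were left out. This gave 125 nuclei out of 713, of which 69 were few-UMI and 56 were mixed.

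The study had 2 treatments, a hot water bath and a condition labelled SNI with brush, with 1 library each. TRAP2 mice allow neurons that fire within a set period to be tagged permanently, and per the labels the captured neurons descend to the spinal cord and were activated by the treatment. Both groups carried the same strain and virus, and the hindbrains of a treatment were pooled before nuclei were isolated. With 1 library per treatment, and nuclei that are not replicates, no test was possible and none is given. Intervals are exact 95% intervals that cover counting error only, and every contrast compares these 2 libraries.

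As background, Slc17a6, Slc17a7 and Slc17a8 encode the vesicular glutamate transporters VGLUT2, VGLUT1 and VGLUT3. Gad1 and Gad2 encode the enzymes that make GABA, Slc32a1 the vesicular transporter for GABA and glycine, and Slc6a5 the plasma membrane glycine transporter of glycinergic neurons. Descending hindbrain neurons are mostly glutamatergic or inhibitory, but motor and other cholinergic neurons, monoamine neurons and peptide-rich neurons also occur in this tissue and can hold little of these transcripts. The peptide gene Gcg encodes proglucagon, the precursor of GLP-1, and marks a small neuron group of the caudal hindbrain. In the mm10 genome Slc17a6 lies at chr7:51622006-51671119 (plus strand), Gad2 at chr2:22622205-22693874 (plus strand) and Gcg at chr2:62474530-62483650 (minus strand).

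Slc17a6 and Gcg are the genes on which the mixed nuclei from the hot water bath turn, one for the glutamate sum and the other for the peptide that set off many of these nuclei. The 250 bases before their start sites (RefSeq, GRCm38.p6, each on its gene's strand) are shown for that reason, with capitals marking matches to the E-box letters CAGCTG or CAGATG, the TATA-box letters TATAAA or the cAMP response element TGACGTCA on either strand.
Slc17a6, chr7:51621580-51621829, plus strand: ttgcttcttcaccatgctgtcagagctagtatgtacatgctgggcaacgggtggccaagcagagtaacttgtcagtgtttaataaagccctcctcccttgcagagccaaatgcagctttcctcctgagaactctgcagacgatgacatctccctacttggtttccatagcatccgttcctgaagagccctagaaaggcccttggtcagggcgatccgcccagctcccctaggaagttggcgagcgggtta
Gcg, chr2:62483654-62483903, minus strand: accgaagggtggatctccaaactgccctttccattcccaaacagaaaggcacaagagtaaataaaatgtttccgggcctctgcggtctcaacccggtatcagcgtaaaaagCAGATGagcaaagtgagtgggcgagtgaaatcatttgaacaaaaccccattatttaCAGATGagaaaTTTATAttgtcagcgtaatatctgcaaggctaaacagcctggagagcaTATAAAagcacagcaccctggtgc
The Gcg window held CAGATG at positions -139 and -83 from the start site, TATAAA at -24 and its reverse complement at -72. The Slc17a6 window held none of the 4 motifs; RefSeq lists 2 starts for this gene and the first is shown. Over 32851 mouse promoters of this length, CAGATG occurred in 14.4%, CAGCTG in 13.0%, TATAAA in 12.4% and TGACGTCA in 1.55%. These matches describe the letters of the windows.

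Few-UMI nuclei were 52 of 425 under the hot water bath (12.2%, 9.27 to 15.7) and 17 of 288 under SNI with brush (5.90%, 3.48 to 9.28). Mixed nuclei were 33 of 425 (7.76%, 5.40 to 10.7) and 23 of 288 (7.99%, 5.13 to 11.7). The rest were mostly clear in kind, with at least 75% of their transmitter UMIs from 1 sum: 253 glutamatergic and 56 inhibitory nuclei under the hot water bath, and 123 and 103 under SNI with brush. The few-UMI share was larger under the hot water bath. The mixed shares were close with all nuclei counted, and without the nuclei holding at least 5 UMIs of Gcg they were 19 of 397 (4.79%) and 22 of 286 (7.69%). The liver-gene limit removed 18 nuclei from SNI with brush and none from the other, and 15 of these would otherwise have been few-UMI or mixed. The Tph2 limit removed 1 such nucleus from each library.

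**Figure D1:**
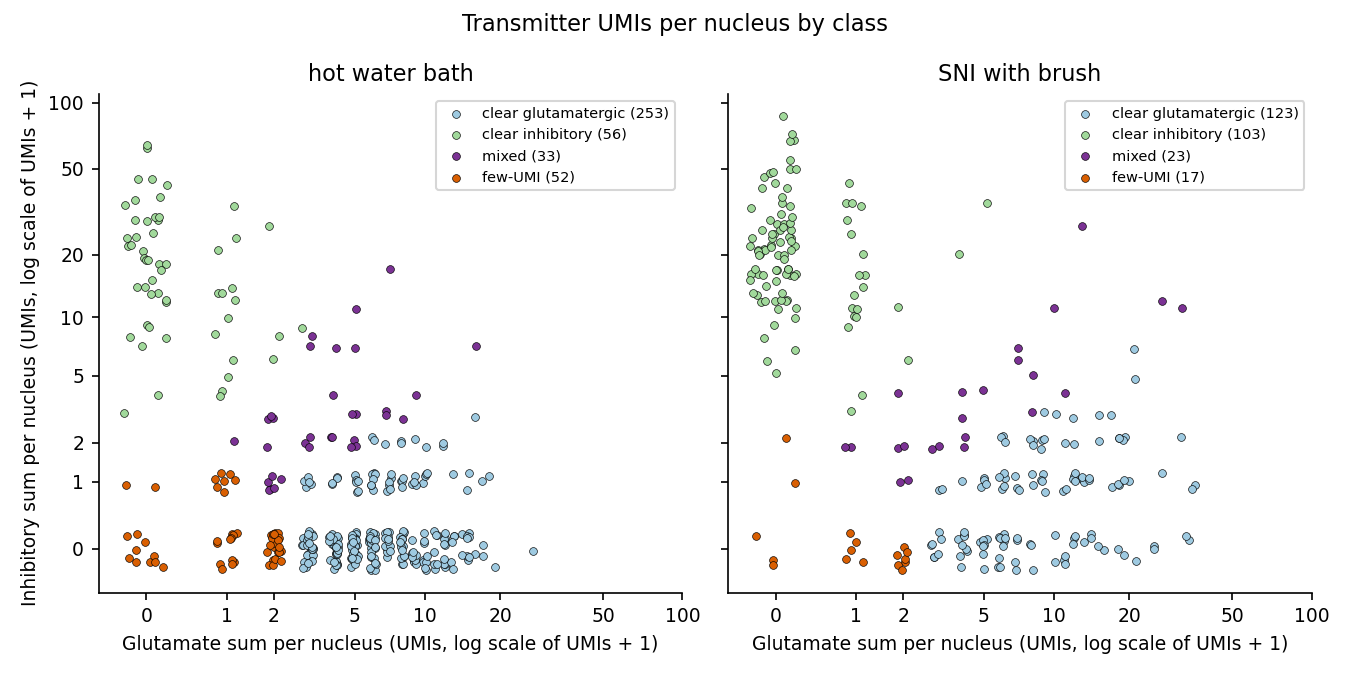
Glutamate sum (x axis) against inhibitory sum (y axis) of every nucleus in the 4 classes, in UMIs on a log scale of UMIs + 1 with a small random offset, for the hot water bath (left) and SNI with brush (right) libraries. The 52 and 17 few-UMI nuclei sit at the lower left by construction, and the 33 and 23 mixed nuclei lie between the arms of clear nuclei, most of them at under 10 UMIs of each kind.

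The sums themselves chose these nuclei and are given as a description. Under the hot water bath 10 few-UMI nuclei had no transmitter UMI, 14 had 1 and 28 had 2. The numbers under SNI with brush were 3, 6 and 8. Just outside the limit, 35 and 11 nuclei had a total of 3. Of the few-UMI nuclei with any UMI, 33 under the hot water bath held glutamate UMIs alone, 2 held inhibitory UMIs alone and 7 held 1 of each. Under SNI with brush 12 held glutamate UMIs alone and 2 inhibitory UMIs alone. Slc17a6 was found in 40 of 52 and 11 of 17 few-UMI nuclei.

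Mixed nuclei joined Slc17a6 with Gad2 more often than any other pair. Slc17a6 had a UMI in 33 of 33 mixed nuclei from the hot water bath and in 22 of 23 from SNI with brush, and Slc17a6 and Gad2 occurred together in 25 and 16. Gad1 was found in 10 and 8, Slc32a1 in 8 and 7, and Slc6a5 in 4 and 9. The glutamate sum was the larger in 21 and 14 nuclei, the inhibitory sum in 10 and 5, and the sums were equal in 2 and 4. In 14 and 12 mixed nuclei each sum reached at least 3 UMIs, whereas in 7 and 4 the smaller sum was 1 UMI. The larger sum was 70 to under 75% of the total in 9 and 3 mixed nuclei, just inside the limit, and exactly 75% in 9 and 9 clear nuclei, just outside it.

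A single UMI of the opposite kind was common in clear nuclei too. In clear glutamatergic nuclei at least 1 inhibitory UMI was seen in 55 of 253 (hot water bath) and 64 of 123 (SNI with brush) nuclei, at median depths of 38997 and 37372 UMIs. Gad2 alone was seen in 19 of 253 and 26 of 123 of them, against 25 of 33 and 16 of 23 mixed nuclei at median depths of 35940 and 39359 UMIs. The rule used Gad2 to part these classes, so this contrast follows from the choice of nuclei. The 18 liver-gene nuclei from SNI with brush had a median of 1 glutamate and 1 inhibitory UMI at a median depth of 22179.5 UMIs, and their transmitter total ran from 0 to 36 UMIs.

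The few-UMI nuclei were shallower than clear nuclei, and far more so under SNI with brush. Under the hot water bath their depth ran from 12155 to 73774 UMIs with a median of 30645, against a median of 38997 in clear glutamatergic and 31583.5 in clear inhibitory nuclei. Under SNI with brush it ran from 10946 to 45346 UMIs with a median of 15515, against 37372 and 31440. Mixed nuclei were as deep as clear ones, with medians of 35940 (11579 to 60846) and 39359 (12310 to 90665). The median share of mitochondrial UMIs was 0.0677% in few-UMI and 0.0924% in mixed nuclei from the hot water bath, and 0.357% and 0.146% under SNI with brush. Scrublet called 3 and 2 doublets in the libraries, none of them a few-UMI or mixed nucleus.

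The few-UMI share was smaller in deeper nuclei and the mixed share was not. With the nuclei of the 4 classes split into 3 equal groups by depth, from the shallowest to the deepest, few-UMI nuclei were 20.6%, 10.7% and 8.33% under the hot water bath and 13.6%, 4.49% and 1.12% under SNI with brush. Mixed nuclei were 8.40%, 9.16% and 7.58%, and 7.95%, 7.87% and 10.1%. With every nucleus thinned to 10000 UMIs, which left out 0 and 2 shallower nuclei, 64.0% (59.2 to 68.6) and 35.0% (29.4 to 40.8) of nuclei became few-UMI and 2.59% and 4.90% mixed. In the deepest group from the hot water bath 11 nuclei of at least 43033 UMIs were few-UMI.

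**Figure D2:**
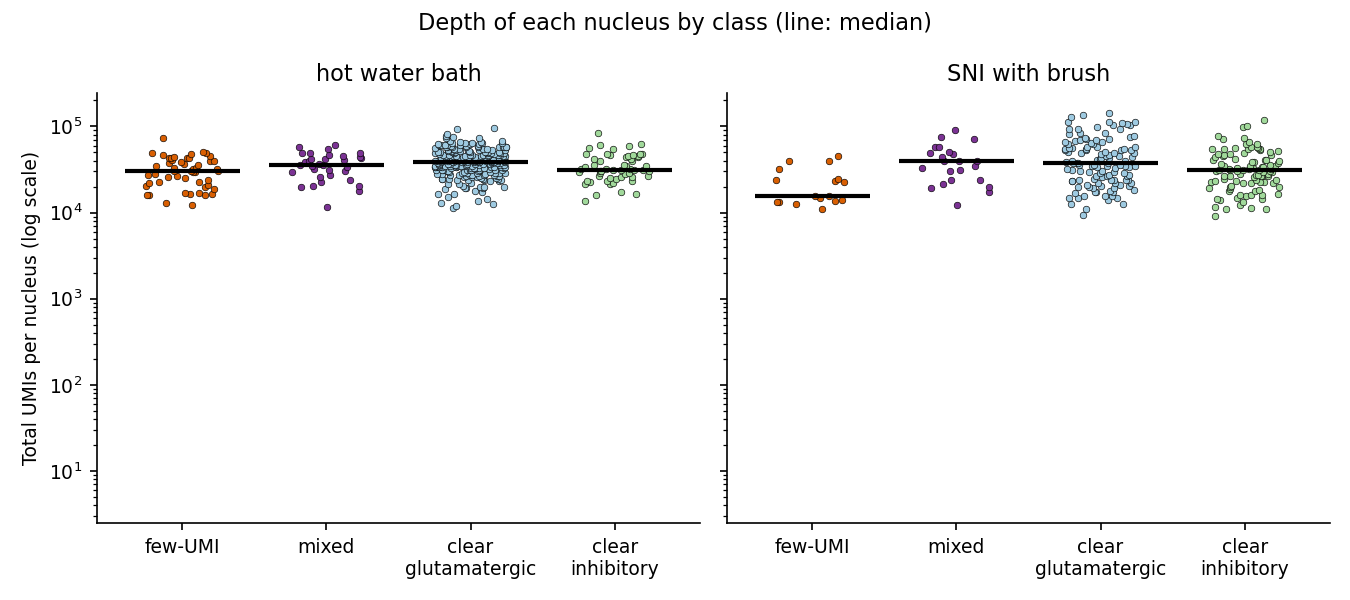
Total UMIs per nucleus (y axis, log scale) by class, for the hot water bath (left) and SNI with brush (right) libraries; each point is a nucleus and each black line a class median. The few-UMI medians are 30645 and 15515 UMIs, the lowest of the 4 classes in each library, and the mixed medians are 35940 and 39359.

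The labels call all nuclei neurons, and 8 neuron markers, among them Rbfox3, Snap25, Syt1 and Map2, went with that name in all but 2 of the few-UMI and mixed nuclei. Their summed level was at least 7857 CPM (UMIs per 1000000 UMIs) in every few-UMI nucleus from the hot water bath and at least 6866 and 6589 CPM in mixed nuclei of the libraries. In 2 of the 17 few-UMI nuclei from SNI with brush it was 773 and 965 CPM, and in the other 15 at least 7132. These 2 nuclei (15515 and 12432 UMIs) held 227 and 249 UMIs of 10 motile cilium genes, a list drawn up after seeing them. Among these genes were Dnah12, an axonemal dynein heavy chain (47 and 42 UMIs), Spag16, a protein of the ciliary central apparatus (31 and 37), and Tmem212, an ependymal marker (25 and 26). The other few-UMI nuclei of that library had at most 4 UMIs of the list. Ependymal and choroid markers summed to 1998 and 2896 CPM in the 2 nuclei and astrocyte markers to 2127 and 1126 CPM. By these markers the 2 nuclei do not carry the label neuron. A clear inhibitory nucleus of the same library (27790 UMIs) had the same pattern, with 972 CPM of neuron markers and 391 UMIs of the list.

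The 2 nuclei held most of the astrocyte markers of few-UMI nuclei from SNI with brush and much of the ependymal ones, but not the oligodendrocyte markers. Astrocyte markers (7 genes) summed to 209 CPM with them and 89.8 without, against 102 and 96.3 CPM in clear glutamatergic and clear inhibitory nuclei. Ependymal and choroid markers (6 genes) summed to 426 CPM with them and 267 without, against 236 and 273. Oligodendrocyte markers (8 genes) stood at 303 CPM with them and 287 without, against 214 and 220, and microglial markers at 295 and 255, against 278 and 333. Under the hot water bath few-UMI nuclei held 36.6 CPM of astrocyte and 12.2 CPM of ependymal and choroid markers, against 44.1 and 12.9 in clear glutamatergic nuclei, with Foxj1, Folr1, Tmem212 and Dynlrb2 at 0. Without the 2 nuclei, few-UMI nuclei were 15 of 270 nuclei under SNI with brush (5.56%), once all nuclei there with under 2000 CPM of neuron markers were left out.

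Without the 11 genes of the rule, few-UMI nuclei from the hot water bath lay among clear glutamatergic nuclei. For each nucleus the 15 nearest nuclei of its library were found from 2000 variable genes, and the share of its clear neighbours that were glutamatergic was taken. The median over 52 few-UMI nuclei from the hot water bath was 100% (70 to 100), as in clear glutamatergic nuclei (100%, 30 to 100), against 0% (0 to 90) in clear inhibitory nuclei and 81.9% among all clear nuclei. All 52 were over 50% and 39 stood at 100%. The median over 17 few-UMI nuclei from SNI with brush was 70% (25 to 100), between clear glutamatergic (80%) and clear inhibitory nuclei (33.3%), with 54.4% among all clear nuclei. The classes overlapped widely there.

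**Figure D3:**
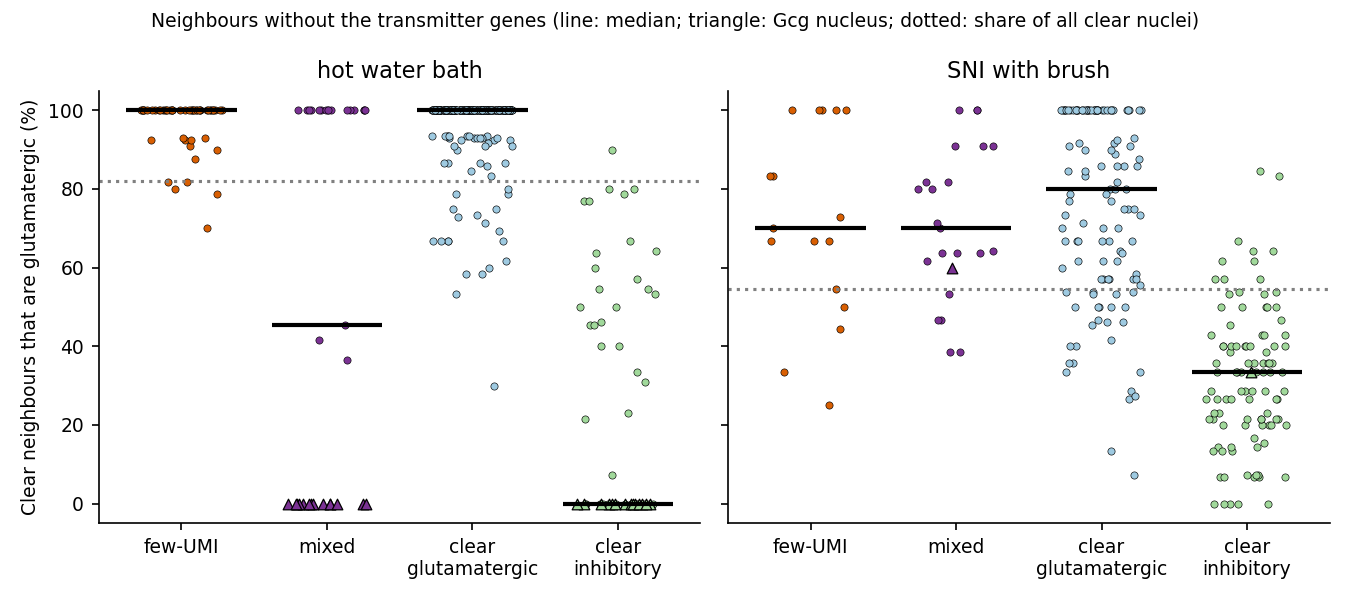
Share of clear neighbours that are glutamatergic (y axis, percent) for every nucleus by class, from genes outside the rule, for the hot water bath (left) and SNI with brush (right) libraries; black lines are medians, dotted lines the share among all clear nuclei, triangles nuclei with at least 5 Gcg UMIs. Few-UMI nuclei stand at a median of 100% and 70%, and the 14 mixed Gcg nuclei from the hot water bath all stand at 0%.

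Mixed nuclei from the hot water bath fell into 2 groups on this measure. Of the 33, 14 had 0% and 16 had 100% glutamatergic neighbours. The 14 at 0% were the 14 mixed nuclei with at least 5 UMIs of Gcg, whereas the other 19 had a median of 100% (36.4 to 100). These 14 clustered with 14 clear inhibitory nuclei that also held Gcg, and no nucleus with that much Gcg was clear glutamatergic. Their 0% therefore follows from how the rule labelled the nuclei with Gcg, and no likeness to other inhibitory nuclei is read from it. The 23 mixed nuclei from SNI with brush had a median of 70% (38.5 to 100) and no such gap.

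Gcg nuclei made up 14 of 33 mixed nuclei under the hot water bath. All 28 nuclei of that library with at least 5 Gcg UMIs were either mixed (14) or clear inhibitory (14), and these numbers were the same at limits of 2 and 10 UMIs. In the mixed ones Gcg ran from 11 to 87 UMIs with a median of 33, and in the clear inhibitory ones from 10 to 92 with a median of 35.5. Clear glutamatergic nuclei held 4 Gcg UMIs in 253 nuclei, few-UMI nuclei 2 in 52, and the other 19 mixed and 42 clear inhibitory nuclei none, which allows at most 4.48 and 1.96 CPM. From SNI with brush, 2 nuclei passed the limit, 1 mixed with 52 Gcg UMIs and 1 clear inhibitory with 25.

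The 28 nuclei shared an uncommon set of transmitter transcripts. Gad2 was found in 28 of 28 (188 UMIs) and Slc17a6 in 24 of 28 (71 UMIs). Gad1 had 4 UMIs, Slc32a1 had 2 and Slc6a5 had 0, which allows at most 3.07 CPM. In the other clear inhibitory nuclei of that library Gad1 stood at 120 CPM (103 to 138), Slc32a1 at 84.9 CPM (71.0 to 101) and Slc6a5 at 102 CPM (86.6 to 119). Slc17a6 stood at 107 CPM (80.9 to 139) in mixed Gcg nuclei and 33.1 CPM (18.5 to 54.5) in clear inhibitory Gcg nuclei, against 1.96 CPM (0.404 to 5.73) in other clear inhibitory nuclei and 172 CPM (164 to 180) in clear glutamatergic nuclei. The rule used these values to part the Gcg nuclei. The glutamate share of their transmitter UMIs ran from 0 to 71.4% with a median of 26.1%, and 8 of the 28 lay between 20 and 30%, around the limit of 25% that separates clear inhibitory from mixed.

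**Figure D4:**
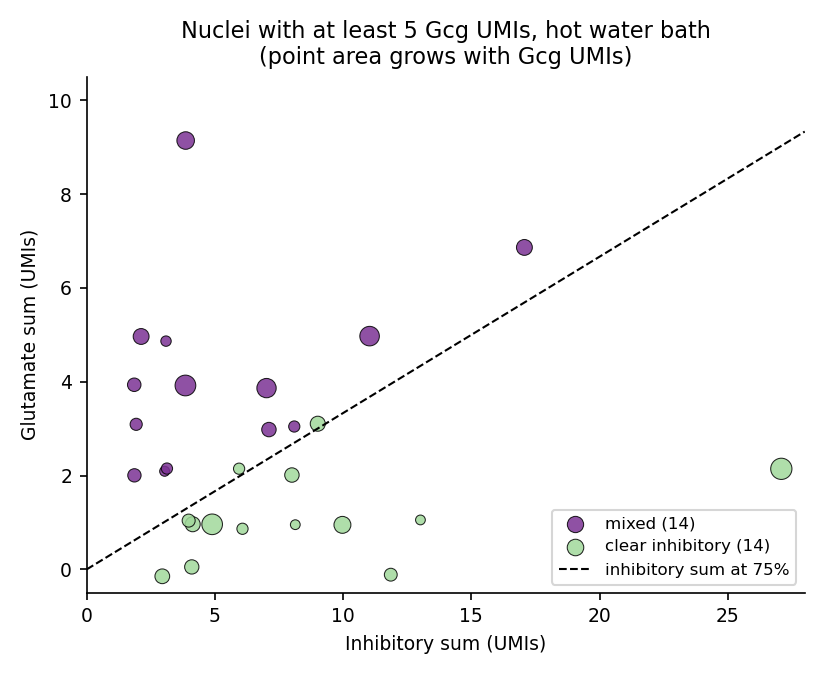
Inhibitory sum (x axis, UMIs) against glutamate sum (y axis, UMIs) of the 28 nuclei with at least 5 Gcg UMIs under the hot water bath, with a small random offset; point area grows with Gcg UMIs and the dashed line marks an inhibitory sum of 75%. The 14 mixed and 14 clear inhibitory nuclei form 1 cloud around the line, with up to 9 glutamate UMIs.

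Several genes outside the rule stood at like levels in mixed and clear inhibitory Gcg nuclei. The axon injury list (9 genes measured) and Penk stood higher in mixed ones, with overlapping intervals for Penk. The axon injury list summed to 687 CPM (618 to 762) in mixed and 472 CPM (411 to 539) in clear inhibitory Gcg nuclei, against 344 CPM in the other mixed nuclei. Other lists also differed, with overlapping intervals. Among them were serotonergic (89.9 and 55.1 CPM), microglial (97.6 and 61.7) and immediate early genes (149 and 209). Prlr, the prolactin receptor, was found in all 28 and stood at 687 CPM (618 to 762) in mixed and 677 CPM (603 to 757) in clear inhibitory Gcg nuclei, against 23.9 CPM in the other mixed nuclei. Baiap3, which acts in dense-core vesicle trafficking, stood at 256 and 267 CPM, against 58.3. Penk, the enkephalin precursor, was found in 14 of 14 mixed Gcg nuclei (161 CPM, 128 to 199) and 11 of 14 clear inhibitory ones (99.2 CPM, 72.4 to 133), and was at 0 UMIs in the other 19 mixed nuclei. It was not particular to Gcg nuclei, as 26 of the other 42 clear inhibitory nuclei held it (107 CPM, 90.8 to 124). The convertases that cut proglucagon stood in opposite order to other mixed nuclei, among genes listed after the Gcg nuclei had been seen. Pcsk1, which yields GLP-1, stood at 207 CPM (170 to 249) in mixed and 216 CPM in clear inhibitory Gcg nuclei, against 53.8 CPM (37.7 to 74.4) in the other mixed nuclei. Pcsk2, which yields glucagon in the pancreas, had 3 UMIs in mixed Gcg nuclei (5.74 CPM, 1.18 to 16.8) and 5 in clear inhibitory ones, against 372 UMIs (556 CPM, 501 to 615) in the other 19 mixed nuclei. Lepr, the leptin receptor, stood at 151 and 154 CPM, against 14.9. Glp1r, the receptor for GLP-1, had 0 UMIs in all 28. Of 3296 genes with at least 50 UMIs over both groups, 201 (6.1%) were at least 1.5-fold higher and 198 (6.01%) lower in mixed than in clear inhibitory Gcg nuclei. How many would pass by counting error alone was not tested. Against the other 19 mixed nuclei the figures were 527 (13%) and 711 (17.5%) of 4053 genes. Leiden clustering of the library without the rule's genes, but with Gcg, placed all 28 in 1 cluster of 28 nuclei.

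The 2 kinds of mixed nuclei from the hot water bath also differed in lists of transcription factors. Hox genes of groups 4 to 8 (13 genes), which mark caudal position, summed to 95.7 CPM (71.0 to 126) in mixed Gcg nuclei and 50.8 CPM (35.2 to 71.0) in the other mixed nuclei, against 19.2 CPM in clear glutamatergic nuclei. Hox groups 1 to 3 (6 genes) stood at 103 CPM (77.6 to 135) and 31.4 CPM (19.4 to 47.9), against 25.4. Factors of glutamatergic lineages (15 genes, such as Lhx4 and Prdm6) stood at 17.2 CPM (7.87 to 32.7) and 100 CPM (77.6 to 127), against 111 in clear glutamatergic nuclei. Factors of inhibitory lineages (15 genes, such as Pax2, Lhx1 and Lhx5) stood at 78.4 CPM (56.3 to 106) and 34.4 CPM (21.8 to 51.5), against 18.1. In the same order, these lists stood at 47.0, 45.7, 71.9 and 129 CPM in the other clear inhibitory nuclei. Clear inhibitory Gcg nuclei had 101, 90.4, 8.82 and 57.3 CPM, so levels like those of mixed Gcg nuclei were not particular to mixed nuclei. The other 19 mixed nuclei were closer to clear glutamatergic than to the other clear inhibitory nuclei in both lineage lists. In Hox groups 4 to 8 they were closer to the other clear inhibitory nuclei. The 22 mixed nuclei without Gcg from SNI with brush had 122 CPM of glutamatergic (100 to 148) and 72.2 CPM of inhibitory lineage factors (55.4 to 92.6), against 83.0 and 91.1 CPM in clear glutamatergic and 14.98 and 285 CPM in the other clear inhibitory nuclei.

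In the same lists few-UMI nuclei lay between the clear classes in glutamatergic lineage factors and, under the hot water bath, close to clear glutamatergic nuclei in inhibitory ones. Under the hot water bath the glutamatergic lineage factors summed to 81.0 CPM in few-UMI nuclei, against 111 in clear glutamatergic and 57.5 in clear inhibitory nuclei, and the inhibitory lineage factors to 20.1 CPM, against 18.1 and 112. Under SNI with brush the values were 59.0 CPM against 83.0 and 15.2, and 61.7 CPM against 91.1 and 285. Prdm6 had 39 UMIs in few-UMI nuclei from the hot water bath and 0 in those from SNI with brush, where 56 UMIs were seen in clear glutamatergic nuclei. Pax8, a factor of inhibitory neurons, had 0 UMIs in few-UMI nuclei of both libraries, and Pax2 had 1 and 2. Lmx1b, a factor of dorsal glutamatergic and serotonergic neurons, had 6 and 0 UMIs. These are raw UMIs over groups of unequal size. Few-UMI nuclei held 1641443 and 373058 UMIs in all, and clear glutamatergic nuclei from SNI with brush 5688669. In few-UMI nuclei from SNI with brush 0 UMIs allows up to 8.04 CPM, so no loss is read from the zeros there.

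Single mixed nuclei without Gcg held both kinds of transcript in number, mostly under SNI with brush. A nucleus of 90665 UMIs there had 32 Slc17a6, 10 Gad2 and 1 Gad1 UMIs. A nucleus of 58335 UMIs had 20 Slc17a6, 7 Slc17a8, 11 Gad2 and 1 Slc6a5 UMIs. Another, of 30909 UMIs, paired 12 Slc17a6 UMIs with 13 of Slc6a5, 9 of Gad1 and 5 of Slc32a1. Slc17a8 reached 7, 6 and 3 UMIs in 3 nuclei of this library and summed to 18.3 CPM (10.6 to 29.3) over its mixed nuclei, against 4.57 CPM (2.99 to 6.70) in clear glutamatergic nuclei. All 17 of these UMIs lay in 4 of the 23 mixed nuclei. The rule used Slc17a8 to choose the classes, so its levels are a description only. Under the hot water bath the largest pairings without Gcg were 16 Slc17a6 with 6 Gad2 UMIs (35398 UMIs in all) and 5 Slc17a6 with 7 Gad2 UMIs (30209 UMIs). Sst, the somatostatin precursor, had 94 UMIs in mixed nuclei from SNI with brush, of which 37 came from 1 nucleus that also held 35 UMIs of Foxp2.

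Acetylcholine genes set off some of the other nuclei. Chat (chr14:32408203-32465989, minus strand) encodes choline acetyltransferase, Slc5a7 (chr17:54273590-54299034, minus strand) the choline transporter, and Slc18a3 the vesicular acetylcholine transporter. Slc18a3 (chr14:32462438-32464850, minus strand) lies inside the Chat gene on the same strand, so reads may be split uncertainly between them. Every nucleus with at least 10 UMIs of Chat and Slc5a7 together, 2 under the hot water bath and 3 under SNI with brush, was few-UMI or mixed. At a limit of 5 UMIs, 2 of 4 such nuclei from the hot water bath were few-UMI and 2 clear glutamatergic. Under SNI with brush, 3 of 8 were few-UMI, 1 mixed, 3 clear glutamatergic and 1 a liver-gene nucleus.

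The 2 few-UMI nuclei from the hot water bath with at least 10 such UMIs had no transmitter UMI at all despite their depth. The first, of 73774 UMIs, had 15 Chat and 14 Slc5a7 UMIs. The second, of 43318 UMIs, had 29 Chat and 17 Slc5a7 UMIs with 65 of Nos1, the neuronal nitric oxide synthase. Among few-UMI nuclei from SNI with brush, 1 of 22494 UMIs had 7 Chat, 14 Slc5a7 and 2 Slc18a3 UMIs and no transmitter UMI. It also held the peptide genes Vip (35 UMIs), Nts (34) and Cartpt (20) and 8 UMIs of Prph, the intermediate filament peripherin. Another, of 24198 UMIs, had 10 Slc5a7 UMIs without Chat and 2 Slc17a6 UMIs. The mixed nucleus, of 74993 UMIs, had 22 Chat, 64 Slc5a7, 3 Slc18a3 and 59 Nos1 UMIs beside 2 glutamate and 2 inhibitory UMIs. Isl1 and Mnx1, factors of motor neurons, were at 0 UMIs in few-UMI and mixed nuclei from the hot water bath, and under SNI with brush Isl1 had 2 UMIs in few-UMI nuclei and Mnx1 none.

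**Figure D5:**
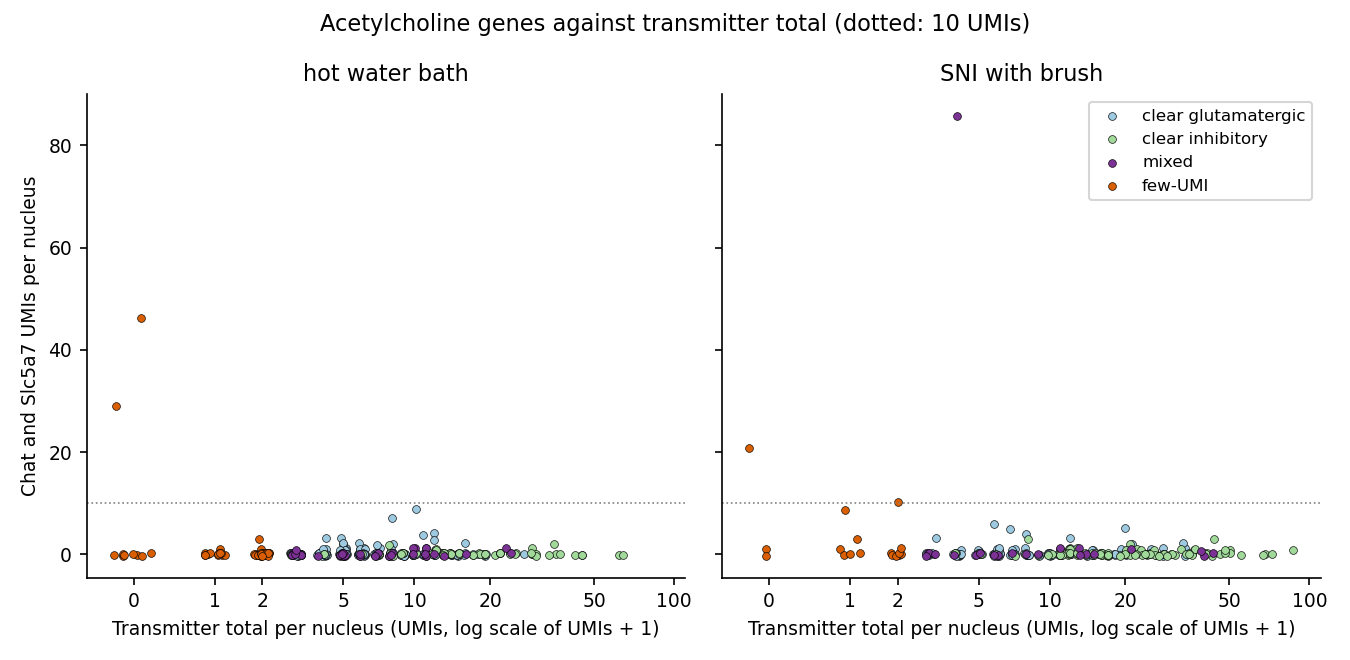
Transmitter total (x axis, UMIs on a log scale of UMIs + 1) against UMIs of Chat and Slc5a7 together (y axis) for every nucleus of the 4 classes, with a small random offset, in the hot water bath (left) and SNI with brush (right) libraries. The 5 nuclei at or over the dotted line of 10 UMIs are 4 few-UMI nuclei and 1 mixed nucleus.

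Genes were then compared over summed UMIs of each class. A gene was called higher when its CPM was at least 1.5-fold that of both clear classes in both libraries, and lower by the same fold in the other direction. In few-UMI nuclei 235 of 14496 genes with at least 50 UMIs were higher (1.62%) and 182 lower (1.26%). In mixed nuclei 128 of 14494 were higher (0.883%) and 255 lower (1.76%). The classes share their clear nuclei, so these 2 comparisons are not independent. Chat and Slc5a7, the 2 cholinergic genes with enough UMIs of 5 measured, were both higher in few-UMI nuclei: Chat stood at 26.8 CPM under the hot water bath against 2.16 and 2.52 CPM in clear glutamatergic and clear inhibitory nuclei, with all 44 UMIs from 2 nuclei, and Slc5a7 at 21.9 against 3.73 and 1.01. Under SNI with brush Chat stood at 21.4 CPM (8 UMIs in 2 nuclei) against 2.46 and 1.38, and Slc5a7 at 102 against 6.15 and 4.69. Slc5a7 also came mostly from few nuclei. The same 2 hot water bath nuclei held 14 and 17 of its UMIs, and 3 nuclei from SNI with brush held 14, 10 and 9. Chat passed the floor of 50 UMIs only through the few-UMI nuclei, where it was high, so its call is a description only. Vip was higher through 1 nucleus per library (26 and 35 UMIs).

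Prph and Slc6a11 were also higher in few-UMI nuclei. Prph, found in 15 hot water bath nuclei, stood at 21.9 CPM against 8.34 and 3.02, and at 29.5 against 8.44 and 7.45 under SNI with brush, where 1 nucleus held 8 of its 11 UMIs. Slc6a11, the GABA transporter GAT3, stood at 19.5 CPM against 11.2 and 10.1 under the hot water bath (21 nuclei) and at 21.4 against 6.86 and 10.2 under SNI with brush (6 nuclei). It was higher in mixed nuclei as well, at 17.6 CPM (18 nuclei) and 19.3 CPM (10 nuclei). Syt2, a fast calcium sensor of transmitter release, was lower in both classes. It stood at 62.7 CPM in few-UMI and 76.3 CPM in mixed nuclei from the hot water bath, against 127 and 137 CPM in the clear classes. The levels under SNI with brush were 61.7 and 128 CPM, against 222 and 249 CPM. It was the 1 gene of 18 of synaptic vesicles and release past the fold in either class.

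Among all genes, those named by rank in few-UMI nuclei had low counts. Nr2f1, a nuclear receptor transcription factor, stood at 18.9 CPM (12.8 to 26.8) under the hot water bath against 8.83 and 9.07 CPM, and at 48.2 CPM (28.6 to 76.3) against 14.8 and 25.1 CPM under SNI with brush. Zfp57, a zinc finger protein of imprinted loci, stood at 29.9 CPM against 15.6 and 9.58, and at 21.4 CPM (8 UMIs) against 6.50 and 7.73. Nptxr, the neuronal pentraxin receptor, stood at 32.3 CPM against 18.1 and 18.6, and at 40.2 CPM (15 UMIs) against 20.9 and 18.5. The others of the 12 highest were Tmub2, Ppp1r14a, Snx15, Paxx, Fuz, Slc6a11, Hspb8, Qsox2 and Flna, with 7 to 45 UMIs under the hot water bath and 8 to 21 under SNI with brush. Without the nuclei low in neuron markers 11 of the 12 were still called, all but Flna.

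Of the genes lower in few-UMI nuclei, Bcl11a had the most UMIs among the 12 named. This transcription factor of neuron subtypes stood at 8.53 CPM (14 UMIs) against 22.2 and 61.0 under the hot water bath, and at 26.8 CPM (10 UMIs) against 75.8 and 89.7 under SNI with brush. Abcb1b, a membrane efflux transporter, stood at 4.26 CPM against 13.1 and 16.6, and at 2.68 CPM (1 UMI) against 17.1 and 28.1. Few-UMI nuclei from SNI with brush held 373058 UMIs in all, so that 0 UMIs allows up to 8.04 CPM. Of the 182 lower genes, 98 had 0 UMIs there, and for 80 of these 98 both clear classes were at or under that limit, so that a lower level was not detectable at this depth. This holds for the 9 of the 12 named genes at 0 UMIs there (Cerkl, Notch2, Kctd12, Fam181b, Aga, Appbp2os, Fignl2, Tbc1d8b and Clp1). Mreg had 6 UMIs under the hot water bath and 1 under SNI with brush. Kctd12 changed direction with a few-UMI limit of under 5 UMIs, to a mean log2 ratio of 0.75 over the 4 contrasts with clear nuclei.

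Of the 128 genes higher in mixed nuclei, 64 were also called when the Gcg nuclei were left out of all classes. Epb41l2, a membrane skeleton protein, stood at 83.0 CPM (99 UMIs) against 23.5 and 39.8 under the hot water bath, and at 61.3 CPM (57 UMIs) against 24.3 and 17.7 under SNI with brush. Baiap3 stood at 145 CPM against 41.2 and 86.7, and at 63.4 against 20.9 and 30.9. Arhgef28, a guanine nucleotide exchange factor, stood at 102 CPM against 63.3 and 64.0, and at 68.8 against 34.3 and 36.4. Among the named genes, Adamtsl4, Trp53i11, Gins3 and Zfp970, with 5 to 14 UMIs per library, were still called without the Gcg nuclei. Epb41l2, Baiap3, Arhgef28, Hyal1, Alg3, Arl4a and Fxyd7 were not.

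Htr7, a serotonin receptor gene, was lower in mixed nuclei with and without the Gcg nuclei. It stood at 8.39 CPM (10 UMIs) against 42.3 and 95.8 under the hot water bath, and at 17.2 CPM (16 UMIs) against 52.0 and 54.4 under SNI with brush. Gal3st1, the sulfotransferase that makes sulfatide, stood at 4.19 CPM against 12.7 and 11.1, and at 4.3 against 19.7 and 24.8. Sptssb, a subunit of serine palmitoyltransferase, stood at 1.68 CPM against 6.67 and 9.07, and at 3.22 against 15.3 and 15.5. The others named were Ccdc24, Pcdhb22, Wdr90, Msl3, Pitx1, Tomm20l, Kyat3, G0s2 and Elmod3, with 0 to 5 UMIs per library in mixed nuclei. Pcdhb22 belongs to a family of near copies, so its count is uncertain. Of the 255 lower genes, 129 were also called without the Gcg nuclei, and among the 12 named all but Pitx1 were.

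High peptide levels in few-UMI nuclei came from single nuclei. A nucleus of 39324 UMIs under SNI with brush held 360 UMIs of Cartpt, the CART peptide precursor, with 20 of Ucn (urocortin) and 23 of Cck (cholecystokinin), beside 1 transmitter UMI. These 360 UMIs were most of the 383 Cartpt UMIs of that class. A nucleus of 16072 UMIs under the hot water bath held 26 UMIs of Vip, 35 of Cck and 8 of Foxp2 and no transmitter UMI. The neuropeptide list (25 genes) summed to 1925 CPM in few-UMI nuclei from SNI with brush, against 509 and 568 in clear glutamatergic and clear inhibitory nuclei, and to 453 CPM under the hot water bath, against 389 and 844.

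Between the libraries, the share of genes past the fold was smaller in the higher and larger in the lower direction within few-UMI than within clear nuclei, over different numbers of genes, and this difference was not tested. Of 6251 genes, 1290 (20.6%) were at least 1.5-fold higher and 790 (12.6%) lower under SNI with brush. With scaling by median-of-ratios size factors, which shifts these ratios by -0.11 on the log2 scale, the numbers were 1031 and 1041. Within mixed nuclei 1215 of 6469 (18.8%) were higher and 542 (8.38%) lower, and 931 and 823 after a shift of -0.12. In clear glutamatergic nuclei 24.2% of 13318 genes were higher and 7.06% lower, and in clear inhibitory nuclei 27.8% of 10596 were higher and 6.65% lower. The median log2 ratios of these genes were 0.06 within few-UMI, 0.10 within mixed, 0.17 within clear glutamatergic and 0.21 within clear inhibitory nuclei.

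Of the genes named by rank, which had to be found in at least 5 nuclei with at most 25% of UMIs from 1 nucleus, Ttr, a transcript of choroid plexus and liver, had the largest log2 ratio within few-UMI (4.41, 3.72 to 5.24) and within mixed nuclei (4.58, 3.74 to 5.73), beside 4.54 and 5.30 in clear glutamatergic and clear inhibitory nuclei. Of 19 oxidative phosphorylation genes tested within few-UMI nuclei, 14 were higher and 0 lower, with a median log2 ratio of 1.501. Within mixed nuclei 16 of 21 were higher and 0 lower, with a median of 0.77. The summed list stood at 1059 CPM under the hot water bath and 2480 CPM under SNI with brush in few-UMI nuclei. In mixed nuclei it stood at 1108 and 2146 CPM, in clear glutamatergic nuclei at 1016 and 2482, and in clear inhibitory nuclei at 1343 and 3145. The higher level under SNI with brush was thus not particular to few-UMI or mixed nuclei. Respiratory chain genes outside that list were among the 10 highest named within few-UMI nuclei: Ndufa11 had a log2 ratio of 3.12, Cox5b of 2.81 and Cox6b1 of 2.54, beside 2.06, 2.31 and 1.94 in clear glutamatergic nuclei. Mt1, a metallothionein, had 3.85 within few-UMI nuclei, beside 2.42. Larger ratios came from genes found in few nuclei. All 3 motile cilium genes tested within few-UMI nuclei were higher, with a median log2 ratio of 8.04. Nearly all their UMIs came from the 2 nuclei low in neuron markers. The list was drawn up after seeing these 2 nuclei, and its genes passed the UMI floor through them, so this result is a description only. Both ependymal and choroid genes tested, Ttr and Tmem212, were higher, with a median of 6.62. Tmem212 is also in the motile cilium list, and the same 2 nuclei held 25 and 26 of its UMIs. Within mixed nuclei Slc5a7, the 1 cholinergic gene tested, had a ratio of 4.65, with 64 of its 68 UMIs under SNI with brush from 1 nucleus. Slc5a7 passed the UMI floor through that nucleus, so its ratio is a description only.

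Some genes were lower in few-UMI nuclei from SNI with brush by more than in clear glutamatergic nuclei. They were ranked by their ratio within few-UMI nuclei, which by itself favours milder ratios in other classes. Clstn2, a postsynaptic calsyntenin, had 1028 UMIs (626 CPM) under the hot water bath and 45 UMIs (121 CPM) under SNI with brush, a log2 ratio of -2.36 (-2.84 to -1.95), beside -0.54 in clear glutamatergic nuclei. Pde11a, a phosphodiesterase, had 101 and 1 UMIs, a log2 ratio of -3.94 (-9.84 to -2.01), beside -0.69. Bdnf, the neurotrophin gene, had 177 and 8 UMIs (-2.25, -3.56 to -1.32), beside -0.80. Prlr had 74 and 2 UMIs (-2.76), beside 0.49 in clear glutamatergic and -3.35 in clear inhibitory nuclei, which hold Gcg nuclei. Stk32b, Fam184b, Riok2, Tanc1, Chrna7 and Cdk10 completed the 10 lowest of those named, with log2 ratios of -3.10 to -2.19. The ratio of Tanc1 turned from -2.21 to 0.15 with a few-UMI limit of under 5 UMIs. The few-UMI nuclei of the 2 libraries also differed in median depth and in cell types as given above, and the part of these in the ratios was not tested. The difference between classes in a ratio was not tested either.

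Within mixed nuclei Gcg had the lowest ratio of the genes named, beside 14 Gcg nuclei of 33 from the hot water bath and 1 of 23 from SNI with brush. It had 563 and 52 UMIs, a log2 ratio of -3.07 (-3.52 to -2.67). Zeb2, a transcription factor, and Sulf1, a sulfatase of heparan sulfate, had -2.31 and -2.24, and without the Gcg nuclei these turned to 1.90 and 2.68. Svep1, Cfap54, Stk32a, Trpc6, Rgs20, Filip1 and Zbtb16 had ratios of -3.04 to -1.96. Among the highest, Rtl4 had a log2 ratio of 2.52 (68 and 307 UMIs), beside 0.62 and 0.75 in clear glutamatergic and clear inhibitory nuclei, and Adgrl2, a latrophilin, had 2.32 (46 and 181 UMIs), beside 0.78 and 1.13. Camkv, Ndufa5, Man2a1, Bcan, Dbi, S100b and Vamp1 had ratios of 2.29 to 2.82.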

How the data were processed

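UMI counts per gene and nucleus were deposited by the authors as 1 table per treatment, whole numbers that are not normalized. Cell Ranger 5.0, Seurat and the mm10 genome were used, per the submitters' processing notes. No source used here states the filter on nuclei. The tables held 425 (hot water bath) and 288 (SNI with brush) of 723 and 850 listed barcodes, with 23912 genes and 16344606 and 11298755 UMIs, and shared no barcode.

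Counts were summed per class and library and divided by total UMIs. Ratios had 0.5 UMI added to each sum, and a gene needed at least 50 UMIs over the groups compared. Shares have exact binomial and levels exact Poisson 95% intervals; 0 UMIs is read as up to 3 UMIs. Intervals cover counting error only. Named genes were the 12 (against clear nuclei) or 10 (between libraries) with the largest fold per direction, found in at least 5 nuclei with at most 25% of UMIs from 1 nucleus. Neighbours and Leiden clusters (resolution 1) used scanpy 1.11.5, 2000 variable genes and 30 components, and doublets used its Scrublet; called doublets were kept. Members and gene lists were chosen with earlier results of these data known. On simulated counts with 7324 genes, the few-UMI comparison called 88% of genes raised 2-fold, 78% of those lowered 2-fold and 100% of those changed 4-fold, and the mixed comparison 94%, 90% and 100%. The comparisons of nuclei covered 14496 and 14494 genes. The 7324 genes were chosen for their higher UMI counts. Simulated counts held counting error only, with the same mean for a gene in all classes and libraries before the change. Spread between nuclei and differences between the clear classes or libraries were not simulated. Whether these percentages hold for real nuclei, or for genes with few UMIs, was not tested. Promoters and coordinates came from RefSeq and GENCODE. Alternatives are given in the closing section. Some genes that met the rule for naming or belong to a list are not reported here by name.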

Additional observations from a re-analysis of the deposited data

How the results depend on the processing

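No paired analysis was possible because each treatment had 1 library, and no replicate could be left out. Of 142 recomputed shares, counts and neighbour medians, 107 stayed close to the value reported. Close meant within the interval for shares, 1.5 times for counts and a standard deviation over nuclei for neighbour medians. That last limit is wide. With 15 components the median glutamatergic share of neighbours of few-UMI nuclei from SNI with brush was 50%, against 70% reported and 54.4% among all clear nuclei. With 30 neighbours that of mixed nuclei from the hot water bath was 60%, against 45.5%. Few-UMI shares (hot water bath, then SNI with brush) were 5.65% and 3.13% with a limit under 2 UMIs, 29.2% and 14.6% under 5, and 64.0% and 34.97% after thinning; without the Tph2 and liver-gene limits the latter was 10.4%. Mixed shares were 2.82% and 3.82% with a limit of 66%, 19.5% and 22.6% with 90%, and 2.59% and 4.90% after thinning; without Gcg nuclei the former was 4.79%. With 1 UMI added, 81 genes were lower in few-UMI and 157 in mixed nuclei. With a floor of 20 UMIs, 480 genes were higher in few-UMI, 286 higher and 386 lower in mixed nuclei; between libraries 2937 and 1265 were higher and lower within few-UMI, and 2457 and 957 within mixed nuclei. With a floor of 200 UMIs the numbers were 53 and 63 (few-UMI), 32 and 83 (mixed), 129 and 312 (between libraries, few-UMI) and 179 and 200 (between libraries, mixed). With size factors 823 genes were lower between libraries within mixed nuclei. With the few-UMI limit under 5, 106 genes were higher and 76 lower, and 2575 higher between libraries. Of 1266 other values, 5 reversed: Kctd12 (0.75) and Tanc1 (0.15) under that limit, Zeb2 (1.90) and Sulf1 (2.68) without Gcg nuclei, all as log2 ratios, and the median log2 ratio of astrocyte markers in few-UMI nuclei (-0.12) without the nuclei low in neuron markers. The settings without Gcg nuclei and without nuclei low in neuron markers were chosen after seeing the data. Counts of genes follow the floor because it sets how many are compared; for the other changes the cause was not tested. Depth limits what can be read from genes lower in few-UMI nuclei from SNI with brush, where 0 UMIs allows up to 8.04 CPM.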

Other observations

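None of 10 AMPA and NMDA receptor genes, 14 GABA-A and glycine receptor genes or 21 genes of oxidative phosphorylation were past 1.5-fold against both clear classes in few-UMI or mixed nuclei. Over all genes the shares past it were 1.62% higher and 1.26% lower in few-UMI and 0.883% higher and 1.76% lower in mixed nuclei, so lists of this size would hold few such genes or none, and nothing is read from their absence. None of the immediate early genes tested (11 in few-UMI, 12 in mixed nuclei) were past it, and their list summed to 274 and 247 CPM in few-UMI and mixed nuclei from the hot water bath, against 251 CPM in clear glutamatergic and 151 CPM in clear inhibitory nuclei. Axon injury genes (8 tested, none past the limit) summed to 432 and 407 CPM in few-UMI nuclei from the hot water bath and SNI with brush, against 314 and 240 CPM in clear glutamatergic nuclei. Neurofilament and large-axon genes summed to 465 and 673 CPM, against 565 and 1195 CPM, with Prph alone of 11 tested past the limit in few-UMI nuclei.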
